A study of Mus musculus with 7 samples.

Results

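Hspa5, Creld2, Edem1 and Hspe1 are 4 genes of protein folding, 3 of them for proteins of the endoplasmic reticulum (ER) and 1 for a mitochondrial protein, and they were followed across all 7 arrays of a study of mouse astrocytes. They are 4 of the 1597 genes for which a name was at hand, each with 1 probe set, among 22193 features tested. The members were selected on measured values: all names come from the authors' deposited fold table, which compares the CETP diet groups, and these genes had stood out there or as lower on the cholesterol diet than in wild type. The levels in those comparisons are therefore given as a description, with no test.

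Astrocytes were purified magnetically with the ACSA-2 kit from the whole brain of each mouse, and the labels put their purity above 70% by GFAP. Each animal has 1 single-colour array, made from 10 ng of total RNA. The first group is CETP transgenic (B6.CBA-Tg(CETP)5203Tall/J), fed 1% cholesterol for 2 months between 2 and 4 months of age (n = 3, replicates 1, 2 and 3). The second group holds 2 transgenic mice of that strain, replicates 4 and 5, which the labels put on the standard diet, although the growth protocol names the cholesterol diet for transgenic animals as such. The third holds 2 wild-type mice, replicates 2 and 3, also on the standard diet. The strain carries a human gene for cholesteryl ester transfer protein, whose expression is described in the series' design text as induced by dietary cholesterol. In the comparison of the cholesterol-diet group with wild type, transgene and diet cannot be told apart. The age of the wild-type animals is not given in the sources used here, and none was assigned to the 2 CETP mice labelled standard diet.

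Proteins that enter the ER are folded there by chaperones, and proteins that fail to fold are sent back to the cytosol and degraded. When unfolded proteins build up, the sensors IRE1, PERK and ATF6 start the unfolded protein response, which raises transcription of chaperone and degradation genes, partly through the ER stress response element (ERSE) in their promoters. Mitochondria have chaperones of their own, in part under heat shock factor 1, which binds heat shock elements (HSE). In astrocytes the ER also holds much of the machinery that makes and senses cholesterol.

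The promoters are shown because the members differ in these elements. Each line gives 250 bases before and 50 bases from the start site of the gene in RefSeq (GRCm38.p6), 5′ to 3′ on the + strand, with capitals marking ERSE or HSE matches. The ERSE was searched as CCAAT followed after 9 bases by CCACG, and the HSE as GAA, TTC and GAA with 2 bases in each gap, both on either strand. The windows lie at chr2:34771840-34772139 for Hspa5, chr15:88819396-88819695 for Creld2, chr6:108828391-108828690 for Edem1 and chr1:55087898-55088197 for Hspe1.

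Hspa5: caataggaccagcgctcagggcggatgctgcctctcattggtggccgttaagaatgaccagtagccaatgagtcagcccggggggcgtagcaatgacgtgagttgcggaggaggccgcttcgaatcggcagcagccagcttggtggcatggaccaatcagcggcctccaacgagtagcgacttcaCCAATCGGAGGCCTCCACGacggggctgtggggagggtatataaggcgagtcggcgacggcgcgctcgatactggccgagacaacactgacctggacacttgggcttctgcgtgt
Creld2: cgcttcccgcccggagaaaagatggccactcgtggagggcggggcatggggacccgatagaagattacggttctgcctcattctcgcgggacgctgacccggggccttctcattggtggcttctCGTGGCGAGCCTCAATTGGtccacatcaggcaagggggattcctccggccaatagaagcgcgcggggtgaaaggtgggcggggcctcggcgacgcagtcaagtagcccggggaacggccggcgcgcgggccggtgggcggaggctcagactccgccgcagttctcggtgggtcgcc
Edem1: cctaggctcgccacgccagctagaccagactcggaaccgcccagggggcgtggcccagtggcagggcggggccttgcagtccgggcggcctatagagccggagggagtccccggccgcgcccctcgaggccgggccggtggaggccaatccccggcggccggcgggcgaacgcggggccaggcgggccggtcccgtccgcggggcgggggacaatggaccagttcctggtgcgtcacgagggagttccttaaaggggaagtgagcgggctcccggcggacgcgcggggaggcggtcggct
Hspe1: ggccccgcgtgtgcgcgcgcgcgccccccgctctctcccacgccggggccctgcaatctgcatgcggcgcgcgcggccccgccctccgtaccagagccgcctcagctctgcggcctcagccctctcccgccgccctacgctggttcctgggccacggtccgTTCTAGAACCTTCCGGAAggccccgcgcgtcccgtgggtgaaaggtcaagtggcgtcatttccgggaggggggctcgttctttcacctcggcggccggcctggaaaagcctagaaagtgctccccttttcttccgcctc

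Hspa5 had 1 ERSE match from base -65 to -47, and Creld2 had 1 in the opposite orientation from base -126 to -108, counting the start site as 0. Over the 32851 RefSeq promoter windows 0.119% held an ERSE. Neither Edem1 nor Hspe1 had one in its window. Hspe1 instead had 2 overlapping HSE matches, from -89 to -77 and from -84 to -72, a motif found in 0.603% of windows. Edem1 held a single CCAAT, without CCACG at the set distance. The other unfolded protein response motifs searched, the ERSE-II (ATTGG followed after 1 base by CCACG, 0.037% of windows) and the UPRE (TGACGTGG, 0.676% of windows), had no match in these 4 windows. Of the 266 symbols in the chaperone and folding lists used here, 212 had a window, and 10 held an ERSE: Hspa5, Creld2, Hsp90b1, Calr, Canx, Pdia6, Dnajc3 and Ero1b of ER folding, and Syvn1 and Derl3 of ER-associated degradation. A match describes the letters of the window and not a bound site.

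**Figure D1:**
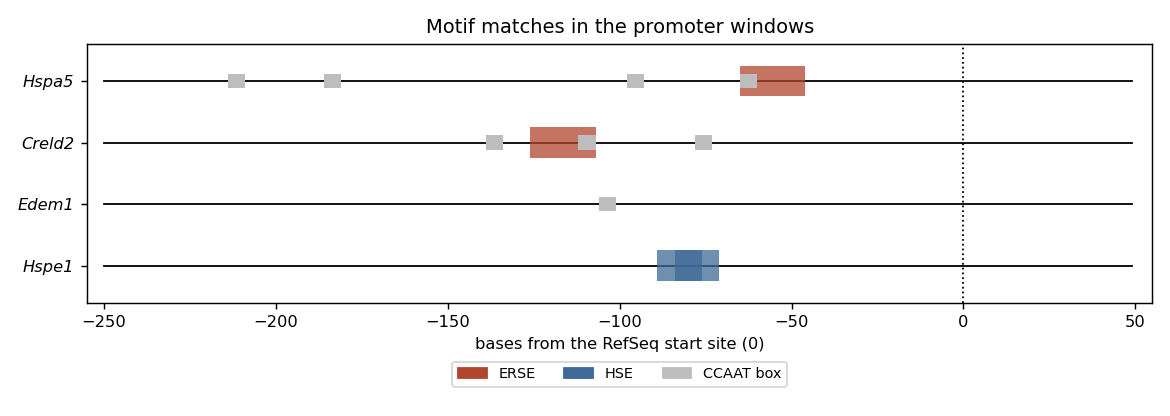
Motif matches in the promoter windows of the 4 genes, by distance in bases from the RefSeq start site at 0 (dotted line). Red boxes are ERSE matches, in Hspa5 and Creld2, blue boxes the 2 overlapping HSE matches of Hspe1, and grey boxes CCAAT, which 37.4% of all windows hold; Edem1 has 1 grey box only.

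Values are the authors' deposited log2 values, 1 per probe set and array. The 7 arrays had medians of 7.51 to 7.59, negative control medians of 7.48 to 7.69 and pairwise correlations of 0.977 to 0.992 across probe sets. All 4 genes exceeded the negative control median of each of the 7 arrays, and the lowest array of each was above it by 4.91 for Hspa5, 2.71 for Hspe1, 2.01 for Creld2 and 1.19 for Edem1. By mean level Hspa5 stood at the 94.4th percentile of features, Hspe1 at the 84.0th, Creld2 at the 78.7th and Edem1 at the 67.4th. These percentiles place each probe set and do not compare RNA amounts between genes. With so few arrays, every value is imprecise. In sorted cells taken in bulk, fewer cells of a type and less RNA per cell cannot be told apart.

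Hspa5 encodes BiP, the Hsp70 chaperone of the ER lumen, which also holds the stress sensors inactive. It measured 12.47, 12.60 and 12.46 on the cholesterol-diet arrays, 13.34 and 13.39 on the CETP arrays labelled standard diet, and 13.80 and 12.93 in wild type. The cholesterol-diet arrays were the lowest of the 7 and lay close together, while the wild-type arrays lay far apart on either side of the CETP standard-diet arrays. The gap between the wild-type arrays was 0.87, as against 0.14 within the cholesterol diet and 0.05 within the CETP standard-diet label. The mean was 12.51 ± 0.08 (SD, n = 3) on the cholesterol diet, 13.37 ± 0.03 (SD, n = 2) on the CETP standard-diet label and 13.37 ± 0.62 (SD, n = 2) in wild type. The log2 difference of the cholesterol diet was -0.85 ± 0.26 (SE) from wild type and -0.86 ± 0.26 from the CETP standard-diet label, 0.553 times the level of each. Without wild-type replicate 2 the first of these was -0.42, and without wild-type replicate 3 it was -1.29.

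Creld2 encodes an ER protein with EGF-like domains that is made and secreted under ER stress. It measured 9.54, 10.15 and 9.63 on the cholesterol diet, 10.55 and 10.28 on the CETP standard-diet label, and 11.02 and 10.42 in wild type. The cholesterol-diet arrays were again the 3 lowest, but replicate 2 came within a short distance of CETP standard-diet replicate 5. The mean was 9.77 ± 0.33 (SD, n = 3) on the cholesterol diet, 10.42 ± 0.19 (SD, n = 2) on the CETP standard-diet label and 10.72 ± 0.43 (SD, n = 2) in wild type. The log2 difference of the cholesterol diet was -0.95 ± 0.27 (SE) from wild type, 0.519 times its level, and -0.64 ± 0.27 from the CETP standard-diet label, 0.640 times its level.

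Edem1 encodes a mannosidase-like protein that takes misfolded glycoproteins out of the folding cycle for degradation. It measured 8.82, 9.16 and 8.74 on the cholesterol diet, 9.53 and 9.44 on the CETP standard-diet label, and 8.83 and 8.96 in wild type. The highest arrays were those of the CETP standard-diet label, and the wild-type arrays fell inside the range of the cholesterol diet. The mean was 8.91 ± 0.22 (SD, n = 3) on the cholesterol diet, 9.48 ± 0.07 (SD, n = 2) on the CETP standard-diet label and 8.89 ± 0.10 (SD, n = 2) in wild type. The log2 difference of the cholesterol diet was 0.02 ± 0.21 (SE) from wild type. From the CETP standard-diet label it was -0.58 ± 0.21, or 0.671 times the level.

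Hspe1 encodes HSP10, the lid of the mitochondrial HSP60 chaperonin. It measured 10.52, 10.80 and 10.26 on the cholesterol diet, 11.34 and 10.74 on the CETP standard-diet label, and 11.46 and 11.30 in wild type. The cholesterol-diet arrays lay below both wild-type arrays, while the arrays of the CETP standard-diet label fell apart, with replicate 4 at the wild-type level and replicate 5 among the cholesterol-diet arrays. The mean was 10.53 ± 0.27 (SD, n = 3) on the cholesterol diet, 11.04 ± 0.43 (SD, n = 2) on the CETP standard-diet label and 11.38 ± 0.12 (SD, n = 2) in wild type. The log2 difference of the cholesterol diet was -0.85 ± 0.25 (SE) from wild type, 0.553 times its level, and -0.51 ± 0.25 from the CETP standard-diet label. The last value was -0.21 without CETP standard-diet replicate 4 and -0.82 without replicate 5.

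**Figure D2:**
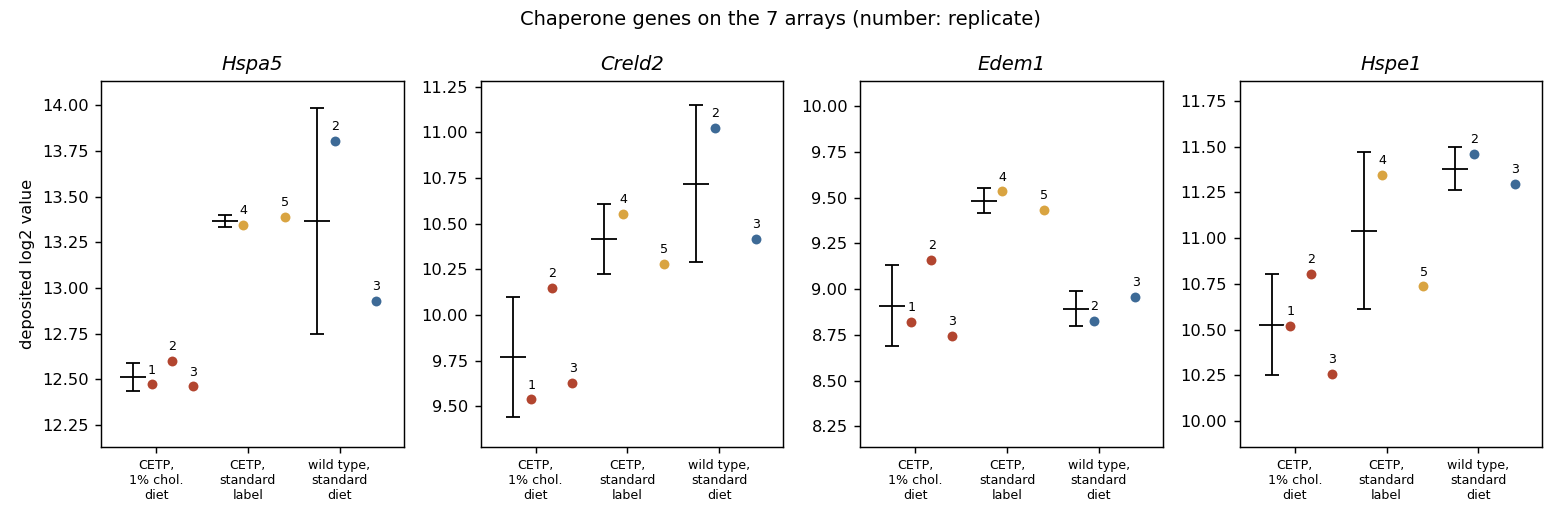
Deposited log2 values of the 4 genes on each array, in 3 groups (points, with the replicate number), with group mean and SD (black; n = 3, 2 and 2); each panel spans 2 log2 units. The cholesterol-diet points are the lowest 3 of 7 for Hspa5 and Creld2, overlap the CETP standard-diet points for Hspe1, and overlap the wild-type points for Edem1.

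Set side by side, the means of Creld2 and Hspe1 were lowest on the cholesterol diet and highest in wild type, and those of the CETP standard-diet label, between them, did not differ from wild type beyond the spread. For Hspa5 the CETP standard-diet label and wild type had means that did not differ beyond their spread. For Edem1 the cholesterol diet and wild type did not differ beyond their spread, and the CETP standard-diet label was highest. Cholesterol-diet arrays lay wholly below wild type for 3 of the 4 members, where 15.1% of all features did so. They lay wholly below the CETP standard-diet label for 3 of 4 as well, where 8.54% of all features did. Both counts restate the choice of members, so nothing is read from them. The median difference of the 4 members was -0.85 from wild type and -0.61 from the CETP standard-diet label, beside -0.05 and -0.002 over all features. By limma with adjustment over all features, 0.00% of features passed in either comparison, with a smallest adjusted p of 0.448 and 1.000, while 1924 and 675 of 22193 features had an unadjusted p under 0.05. These 2 comparisons share the cholesterol-diet arrays.

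The CETP standard-diet label was set against wild type to ask whether the transgenic animals differ where no cholesterol diet is labelled. This comparison did not itself choose the members, but it shares its arrays with those that did. A choice for high values in wild type or on the CETP standard-diet label bears on the differences of all 4 members here. Their intervals and adjusted p are given with that limit. Hspa5 differed by 0.00 ± 0.29 (SE, 95% interval -0.64 to 0.64), with the CETP arrays lying between the wild-type arrays. Creld2 differed by -0.30 ± 0.29 (interval -0.96 to 0.36) and Hspe1 by -0.34 ± 0.28 (interval -0.96 to 0.28), and both overlapped wild type. Edem1 differed by 0.59 ± 0.23 (interval 0.08 to 1.10), 1.51 times the wild-type level. It was higher in 2 of 2 CETP arrays than in both wild-type arrays. Edem1 had been chosen because these same 2 CETP arrays stood above the cholesterol diet (means of 9.48 and 8.91). Edem1 is thus favoured by selection here, and neither its interval nor its separation from wild type is read as a separate result. Its adjusted p by limma was 0.925 over all features, and those of Hspa5, Creld2 and Hspe1 were 1.000, 0.951 and 0.939, so none of the 4 passed. Of all features 12.1% were higher without overlap in this comparison and 0.00% passed at an adjusted p under 0.05, while 1175 had an unadjusted p under 0.05. The median of the 4 members was -0.15, beside -0.05 over all features. Leaving out wild-type replicate 2 changed the differences of Hspa5 to 0.44 and of Creld2 to 0.0004, and leaving out replicate 3 changed that of Hspa5 to -0.44. The difference of Hspe1 was -0.64 without CETP standard-diet replicate 4 and -0.04 without replicate 5.

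**Figure D3:**
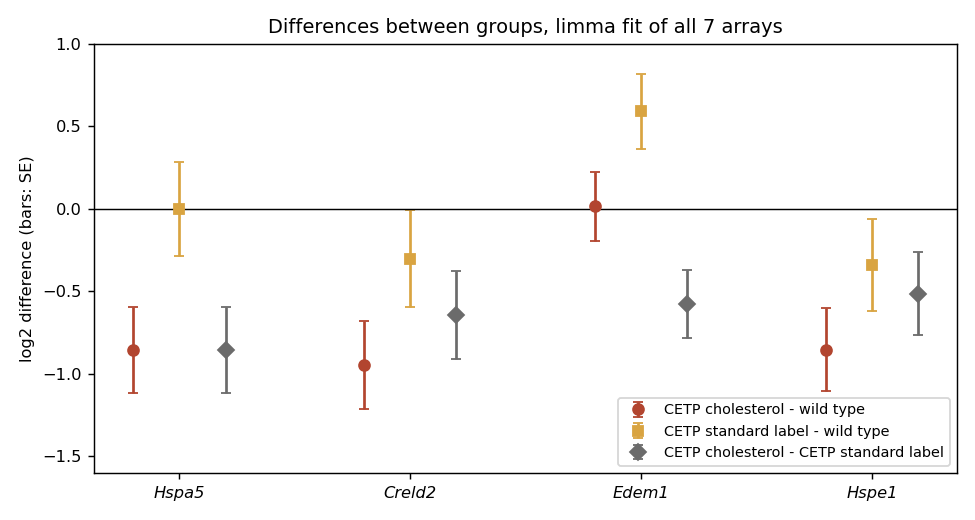
Log2 differences with SE from 1 limma fit of all 7 arrays, for the cholesterol diet minus wild type (circles), the CETP standard-diet label minus wild type (squares) and the cholesterol diet minus the CETP standard-diet label (diamonds). Circles lie near -0.85 to -0.95 for Hspa5, Creld2 and Hspe1 and at 0.02 for Edem1, whose square lies at 0.59.

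Within the groups, deviations from the group mean leave out the differences between group means. They are not free of the choice of members, because the folds of the naming table match differences of Tukey biweight averages. Such an average gives little weight to an outlying array, so a high cholesterol-diet array can go with a low average there. On the cholesterol diet, replicate 2 was the highest of the 3 arrays for all 4 members, by deviations of 0.09 for Hspa5, 0.38 for Creld2, 0.25 for Edem1 and 0.28 for Hspe1. Over all features, which were not chosen in that way, this array was the highest of the 3 in 35.3%. Nothing is therefore read from its place in the members. In wild type, replicate 2 stood above replicate 3 for Hspa5, Creld2 and Hspe1 and below it for Edem1. On the CETP standard-diet label, replicate 4 stood above replicate 5 for Creld2, Edem1 and Hspe1 and just below it for Hspa5. Across the 7 arrays the levels of Creld2 correlated with those of Hspa5 (Pearson r = 0.904, Spearman rho = 0.857) and of Hspe1 (r = 0.918, rho = 0.929). Edem1 correlated less closely with Hspa5 (r = 0.387, rho = 0.571), Creld2 (r = 0.319, rho = 0.50) and Hspe1 (r = 0.300, rho = 0.50). These values share the same 7 arrays and their group differences. After removing the group means, r was 0.742 for Hspa5 with Creld2, 0.709 for Creld2 with Hspe1, 0.678 for Edem1 with Hspe1, 0.501 for Creld2 with Edem1, 0.259 for Hspa5 with Hspe1 and -0.128 for Hspa5 with Edem1. With 3 group means removed, only 4 degrees of freedom remain, and in a group of 2 arrays the deviations mirror each other. These r are therefore very imprecise and not read as shared variation.

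Among the 1593 other named genes, those most like each member over the 7 arrays were ranked by Pearson's r, as a description. For Hspa5 they included Olfr913 (r = 0.974) and Paxip1 (r = 0.959), where Olfr913 had group means of 5.02 on the cholesterol diet, 5.94 on the CETP standard-diet label and 5.86 in wild type, all under the negative control medians. For Creld2 they were Ccdc115 (r = 0.982), Mrpl24 of the mitochondrial ribosome (r = 0.979) and the RNA methyltransferase gene Nsun2 (r = 0.969), and the group means of Ccdc115 and Nsun2 were also under the negative control medians. For Hspe1 they were the RNA helicase gene Dhx16 (r = 0.970), Pigk, an ER enzyme that attaches GPI anchors (r = 0.955), and Ppme1 (r = 0.943). For Edem1 they were Znfx1 (r = 0.976), the Golgi protein gene Trip11 (r = 0.970) and Phldb2 (r = 0.966). Znfx1 showed the group order of Edem1, with means of 8.93 on the cholesterol diet, 9.58 on the CETP standard-diet label and 8.73 in wild type.

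The wider folding machinery was read from 6 lists with 266 symbols, of which 21 were named here, the 4 members among them. Since names exist only for probe sets in the authors' fold table, the named genes are a selection on the difference between the CETP diet groups. Over the 17 other named genes, 9 had cholesterol-diet arrays wholly below wild type and 1 wholly above, with a median difference of -0.52, and 0 passed the test. Among all 1597 named genes 15.4% were wholly below and 17.1% wholly above, with a median of 0.03. Of the 17, 14 were below 0 against the CETP standard-diet label, the difference through which they were named. That comparison shares the cholesterol-diet arrays, so the count of 9 is not read as a separate result. Against the CETP standard-diet label, 4 of the 17 lay wholly below and 2 wholly above, with a median of -0.50, beside 24.0% and 20.7% of all named genes and their median of -0.40. For the CETP standard-diet label against wild type, 0 lay wholly below and 1 wholly above, with a median of 0.07, beside 13.4% and 21.6% of all named genes and their median of 0.09.

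In the ER folding list, Pdia4, a disulfide isomerase, measured 12.50, 12.69 and 12.69 on the cholesterol diet, 13.71 and 12.79 on the CETP standard-diet label, and 13.31 and 12.99 in wild type. Its cholesterol-diet arrays were the 3 lowest, and it differed from wild type by -0.53 ± 0.28. Uggt1, the glucosyltransferase that senses unfolded glycoproteins, differed from wild type by -0.62 ± 0.36 and had its highest array in CETP standard-diet replicate 5 (11.66). CETP standard-diet replicate 4 (10.32) lay inside the cholesterol-diet range of 10.08 to 10.46. Uggt1 too had cholesterol-diet arrays wholly below wild type, which 15.4% of all named genes did. Hspa5 and Creld2, the other named genes of the list, were chosen partly on this difference and add nothing to that count. Pdia4 and Uggt1 were named through the CETP diet groups, where the cholesterol diet differed by -0.62 and -0.71 from the CETP standard-diet label. The cholesterol-diet arrays are the same, so their place below wild type is no separate result either. In ER-associated degradation, the ubiquitin-conjugating enzyme gene Ube2g2 differed from wild type by -0.56 ± 0.31, while Derl3 (0.01 ± 0.28) never reached the negative control median. Of the stress signalling list the glutathione-degrading enzyme gene Chac1, a target of the PERK branch, was named alone, and no array had it above that median. In ER traffic the vesicle coat gene Sec23a (-0.26 ± 0.35) was above it on 1 array.

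Hspd1 encodes HSP60, the chaperonin that HSP10 caps, and lies head to head with Hspe1. Of its 2 RefSeq promoter windows, 1 shares 285 bases with the Hspe1 window and the other 4. It measured 7.71, 8.06 and 7.06 on the cholesterol diet, 8.53 and 7.99 on the CETP standard-diet label, and 8.10 and 8.16 in wild type. Its highest cholesterol-diet array was just below the lower wild-type array, and its lowest was under the negative control median, so the difference of -0.52 ± 0.30 is uncertain in size. Grpel1, the nucleotide exchange factor of mitochondrial HSP70, differed by -0.44 ± 0.25 with overlap. Tomm40, the pore of the outer membrane translocase, was on the other side at 0.67 ± 0.25, with the cholesterol diet wholly above wild type.

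Among 8 named cytosolic heat shock genes, 5 had cholesterol-diet arrays wholly below wild type and 0 wholly above, beside 15.4% and 17.1% of all named genes. All 8 were below 0 against the CETP standard-diet label, the difference through which they were named. Both comparisons share the cholesterol-diet arrays, so nothing is read from the count of 5. Hspb1, a small heat shock protein gene, had the 1 difference from wild type above 0, at 0.50 ± 0.72 with overlap. The largest difference was that of Ahsa2, of the HSP90 co-chaperone family, at -0.999 ± 0.27, followed by the chaperonin subunit gene Cct8 at -0.83 ± 0.37 and the Hsp70 co-chaperone gene Bag5 at -0.80 ± 0.35. Hspa8, the constitutive Hsp70, differed by -0.49 ± 0.25 with overlap, and so did the prefoldin gene Pfdn2 at -0.50 ± 0.31. The 2 arrays of the CETP standard-diet label stood far apart for 3 of the 8: 14.42 for replicate 4 and 11.76 for replicate 5 in Hsph1, 12.01 and 9.22 in Hspb1, and 10.37 and 8.39 in Hspa4l. Between those 2 arrays the members differed by 0.05 for Hspa5, 0.10 for Edem1, 0.27 for Creld2 and 0.61 for Hspe1. For the CETP standard-diet label against wild type none of these 8 genes lay wholly above or below.

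**Figure D4:**
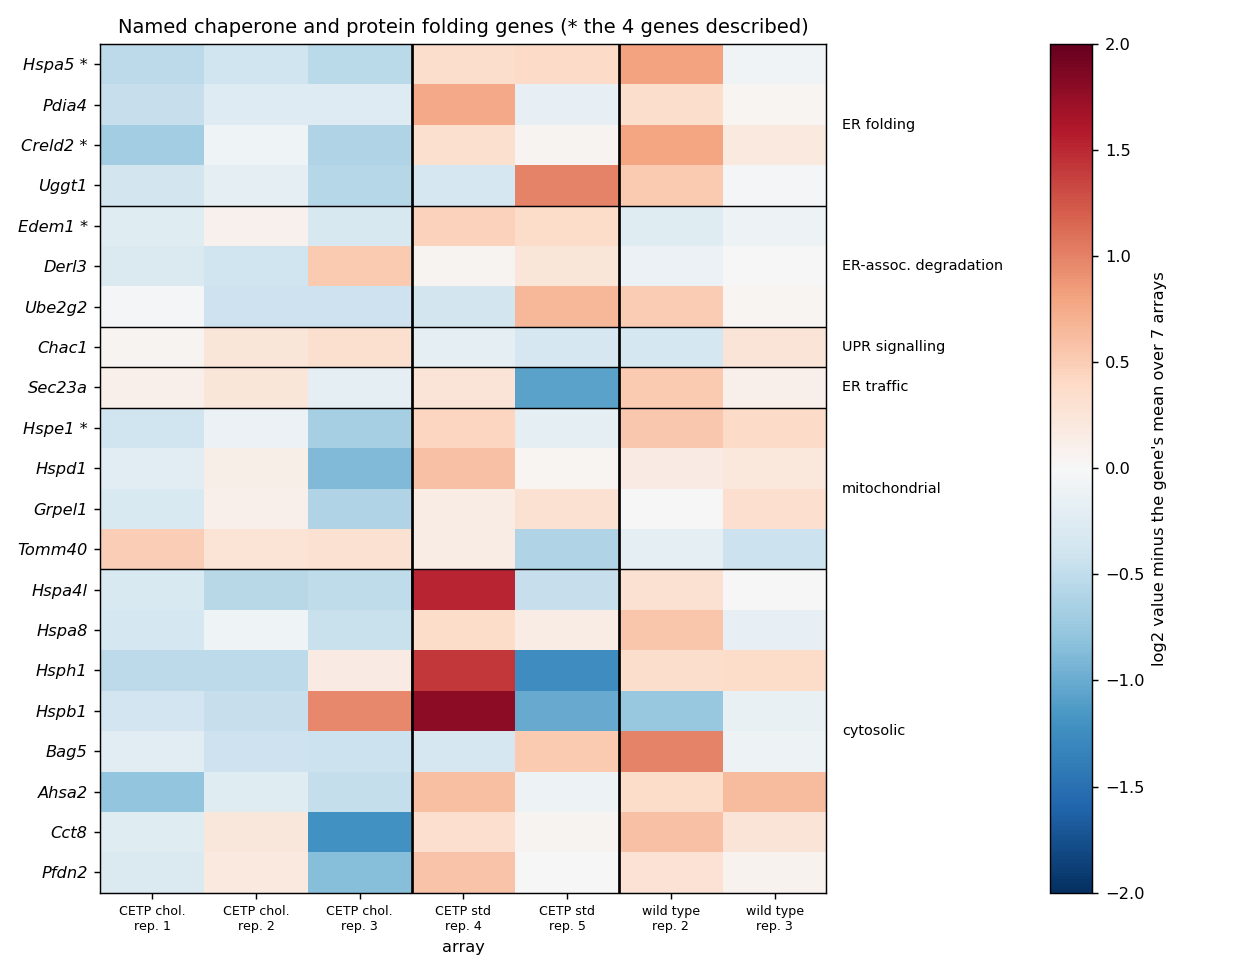
Heat map of the 21 named folding genes (rows, grouped by list, with an asterisk at the 4 members) on the 7 arrays (columns, by group), coloured by the log2 value minus the gene's mean over the arrays. The cholesterol-diet cells of the ER folding list lie below the gene's mean, with Pdia4 at -0.53 and Uggt1 at -0.62 from wild type. They run from blue to nearly white, as for Creld2 in replicate 2 (10.15 beside a mean of 10.23). For Uggt1, CETP standard-diet replicate 4 (10.32) has a colour like theirs. Hspa5 and Creld2 were selected for low values there, and Pdia4 and Uggt1 were named through the difference between the CETP diet groups. CETP standard-diet replicate 4 stands out in red for Hspa4l, Hsph1 and Hspb1.

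Other measures that moved with the groups were read beside the members. The mean of the 4 hybridization controls, which are spiked in before hybridization, was 11.41, 11.21 and 11.77 on the cholesterol diet, 11.02 and 11.22 on the CETP standard-diet label, and 10.996 and 10.80 in wild type. Every cholesterol-diet array was above both wild-type arrays. With this level as a covariate the difference from wild type was -1.01 for Hspa5, -0.69 for Creld2, -0.30 for Hspe1 and 0.39 for Edem1. The difference from the CETP standard-diet label was then -0.95 for Hspa5, -0.49 for Creld2, -0.18 for Hspe1 and -0.35 for Edem1. Within groups the correlation of the control level with Edem1 was -0.886 and with Hspe1 -0.745, against 0.198 for Hspa5 and -0.312 for Creld2. These rest on 4 degrees of freedom. Its part in the results was not tested further.

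Markers of cell types were judged from the named genes only. Of 18 astrocyte markers 2 were named, Slc1a3 and Sox9, and both exceeded the negative controls throughout, while Gfap and Aqp4 were not analysed here. Their summed linear level was 28580 to 53700 on the cholesterol diet, 31270 to 32550 on the CETP standard-diet label and 25270 to 32890 in wild type. The 15 named of 21 microglial markers summed to 9985 to 18740, 13230 to 81180 and 6875 to 10600 in the same groups, and 5 of them exceeded the negative controls throughout. C1qa, a microglial complement gene, measured 13.62 in CETP standard-diet replicate 4, the replicate with the higher Hspe1 of its group, and 9.46 in the other. For endothelial and mural markers (10 of 24 named, 8 above the median throughout) the sums were 15850 to 19400, 17700 to 23540 and 12460 to 14210. The oligodendrocyte lineage had 1 named marker of 16, Olig2, at 9587 to 19440, 7140 to 10130 and 7560 to 8856. Neuronal markers (2 of 14 named, 1 above the median throughout) summed to 606 to 738, 485 to 696 and 431 to 450. Those of choroid plexus and ependyma (4 of 11 named, 3 above the median throughout) summed to 50200 to 140000, 101100 to 152300 and 84290 to 113800. No named marker was under the negative control median on every array, and the part of these cell types in the members' values was not tested. Within groups, over the 7 arrays, the correlations of largest size between a list's mean log2 level and a member were -0.895 for astrocyte markers with Edem1 and 0.733 for neuronal markers with Hspe1. They are the extremes over all lists and members, each list here has 2 named markers, and 4 degrees of freedom remain. Nothing is read from them.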

How the data were processed

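The authors deposited log2 values for each probe set of every array. How background was corrected and arrays were normalized is not given in the sources used here. The deposited fold table gives signed linear folds between unnamed groups and carries a QIAGEN copyright line, per the file headers. It was used to name probe sets and to check the log base: 98.5% of its folds equalled, within rounding, the difference of Tukey biweight averages of the CETP groups, standard-diet label minus cholesterol diet.

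Of 28846 entries, 22206 probe sets were kept and all control entries left out. Of the 1778 entries of the fold table, 160 that name several genes and 8 on another chromosome than RefSeq gives (GRCm38.p6, names only) were dropped, and 78 kept the file's name. A gene with several probe sets was represented by the one with the highest mean, which left 22193 features.

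A limma model (3.58.1, R 4.3.3) with 3 group means and no covariate took in all 7 arrays (lmFit and eBayes, 4 residual and 5.39 prior degrees of freedom). P-values are two-sided and Benjamini-Hochberg adjusted over all features. The 95% intervals use the same moderated errors. The code of the fit was run on simulated independent normal values with known changes. The share of those changes that it recovered is not given here, so features that did not pass are not shown to be unchanged. Tables, motifs and figures used matplotlib 3.10.9, scipy 1.17.1, pandas 2.3.3 and numpy 2.4.6 under Python 3.11.15.

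The members, lists and motifs were chosen with earlier results of these data known. The genes named are the members, the 3 named genes most like each by Pearson's r, and every named gene of the folding lists. One gene that this rule names is not reported here. Other settings tried were a replicate block, the hybridization control level as a covariate, a trended robust prior, array weights, the mean of a gene's probe sets, dim features dropped, median subtraction, quantile normalization, only the compared groups in the fit, and each array left out in turn. Nothing says whether the animals of a group were independent beyond their own numbers, so p-values measure the spread between these arrays.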

Additional observations from a re-analysis of the deposited data

How the results depend on the processing

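The median difference of the 4 members from wild type on the cholesterol diet ranged from -1.09 to -0.53 when single arrays were left out, with -0.53 without wild-type replicate 2, and was -0.49 with the hybridization control covariate. The median for the CETP standard-diet label against wild type ranged from -0.43 to 0.22 and turned to 0.22 without wild-type replicate 2, and that of the cholesterol diet against the CETP standard-diet label ranged from -0.80 to -0.52. The causes were not tested.

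Differences near 0 changed sign. Edem1 on the cholesterol diet against wild type ranged from -0.11 to 0.10 with single arrays left out and was -0.0315 with array weights. For the CETP standard-diet label against wild type, Hspa5 ranged from -0.44 to 0.44 and was -0.0161 after quantile normalization and -0.0622 with the covariate, and Creld2 ranged from -0.61 to 0.0004. Counts of features past an adjusted p of 0.05 stayed at 0 except in 3 fits: 9 for the CETP standard-diet label against wild type and 14 for the cholesterol diet against the CETP standard-diet label, both without CETP standard-diet replicate 5, and 7 for the cholesterol diet against wild type with a replicate block. With 1 array left in a group, that array is assumed to vary like the others. Only the cholesterol-diet and wild-type groups share replicate numbers (2 and 3), and their differences between replicates 2 and 3 correlated at 0.025 over features, so the number is not read as a pairing; Hspa5, Creld2, Edem1 and Hspe1 gave -0.83, -0.83, 0.06 and -0.85 under the block.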
